A study of Mus musculus with 8 samples.

Results

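Transcripts of furin, of the metalloproteases that act at the cell surface and in the matrix, and of their inhibitors were followed in B16, a pigmented mouse melanoma cell line. The members were 10 genes of the 34834 gene names on the array design, taken by name with all their probes: the convertase gene Furin, the matrix metalloproteinase genes Mmp2, Mmp9 and Mmp14, the sheddase genes Adam10 and Adam17, the plasminogen activator gene Plau, and the inhibitor genes Timp1, Timp2 and Timp3. They were read by 12 of the 55698 probes, on 17 spots of each array. Of these, 8 genes and 10 probes were bright enough to test, and Mmp9 and Plau were not.

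Each of 4 groups held 2 biological replicates, with 1 array hybridised per replicate in 1 colour: cells given SEMA3E for 2 h, cells given SEMA3E for 8 h, cells given cytochalasin D for 8 h, and control cells labelled 0 h. All groups were the same line, grown in high-glucose medium with 5% fetal bovine serum, which carries metalloprotease inhibitors and plasminogen of its own. SEMA3E is a secreted guidance protein that binds plexin D1, and the title of the series names this pair as the inducer under study. Cytochalasin D stops actin filaments from growing. The labels give neither the doses nor a vehicle control, and all 3 treated groups were set against controls labelled 0 h, so treatment and time in culture cannot be told apart in any comparison with control. Of the 5 comparisons, cytochalasin D against SEMA3E at 8 h is matched in time.

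Furin is a proprotein convertase of the secretory pathway that cuts precursors after basic residues. SEMA3E is among the proteins it cuts, and so are the precursors of membrane-bound MMP14 and of the ADAM sheddases. At the surface, MMP14 activates the gelatinase MMP2 with TIMP2 as a bridge between them, so TIMP2 both blocks metalloproteinases and helps to switch one on. ADAM10 and ADAM17 release growth factors and receptors from membranes, TIMP3 blocks ADAM17 among others, and urokinase, the product of Plau, turns plasminogen into plasmin, which degrades matrix. In melanoma these enzymes are known for their part in invasion. They are controlled to a large extent after transcription, which arrays do not read.

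The probes are 60-mer DNA oligonucleotides, and the files give their sequences. The Adam17 probes are shown because they overlap along most of their length and yet read differently. Their first 30 bases follow, 5′ to 3′, with the bases common to both probes in capitals, and the gene lies on chromosome 12 in RefSeq's mouse annotation.
Adam17, probe used for the gene: ttgatgtcTGTGAATTACTAATAAAGCTAC
Adam17, other probe: TGTGAATTACTAATAAAGCTACGCACATGT
The other probe starts 8 bases further along the sequence, and 52 of 60 bases are common to both.

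The probe of Mmp14, on chromosome 14, is shown whole because the largest differences among the members were read with it. It held 51.7% G and C, the highest share among the members' probes, which otherwise ran from 35% to 45%.
Mmp14: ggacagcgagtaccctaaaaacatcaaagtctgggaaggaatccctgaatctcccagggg
The Timp2 probes, on chromosome 11, share no stretch and did not move alike. The first is given by its first 30 bases and the second whole.
Timp2, probe used for the gene: ccgtgagcgttcttgtgccgtgttgatgcc
Timp2, other probe: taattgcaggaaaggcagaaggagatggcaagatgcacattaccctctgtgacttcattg
The Furin probe, on chromosome 7, and the Mmp2 probe, on chromosome 8, are shown by their first 30 bases.
Furin: aatggacacgagataatgttagaggtttta
Mmp2: gttcttcaacatctatgacctttttatggc

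No member passed the test in any of the 5 comparisons made. Levels are log2 of the processed signal minus the 75th percentile of the array's detected probes, so 0 is that percentile and a difference of 1 is 2-fold, and each probe has its own brightness, so a level is compared between groups and not between genes. A gene was called changed at an adjusted p under 0.05 by limma over all 18074 genes tested (Benjamini-Hochberg, two-sided, with the spread estimated from all 8 arrays). At 2 h of SEMA3E against control, 0 of 8 members were called, where 0% of all genes were, and 0 of 8 had an unadjusted p under 0.05, where 9.48% of all genes did. At 8 h of SEMA3E against control the count was 0 of 8 against 0.00553% of all genes, with 1 of 8 at an unadjusted p under 0.05 against 6.13%. With cytochalasin D against control it was 0 of 8 against 0%, with 0 of 8 unadjusted against 2.43%. With cytochalasin D against SEMA3E at 8 h it was 0 of 8 against 0.00553%, with 2 of 8 unadjusted against 11%. For SEMA3E at 8 h against SEMA3E at 2 h it was 0 of 8 against 0%, with 2 of 8 unadjusted against 11.6%.

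With 2 arrays a group, arrays that do not overlap are common, and the members were read against that share. The arrays of the groups did not overlap for 1 of 8 members at 2 h of SEMA3E against control, where the share of all genes was 39.7%. For SEMA3E at 8 h against control it was 4 of 8, against 37.5% of all genes, and for cytochalasin D against control 1 of 8, against 28.9%. It was 6 of 8 for cytochalasin D against SEMA3E at 8 h, where 52.4% of all genes were apart, and 5 of 8 for SEMA3E at 8 h against 2 h, where 50.5% were. The median difference of the members was -0.02, 0.18, -0.03, -0.36 and 0.26 in these comparisons, in the order given, and that of all genes was 0.06, 0.12, 0.03, -0.13 and 0.09.

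**Figure D1:**
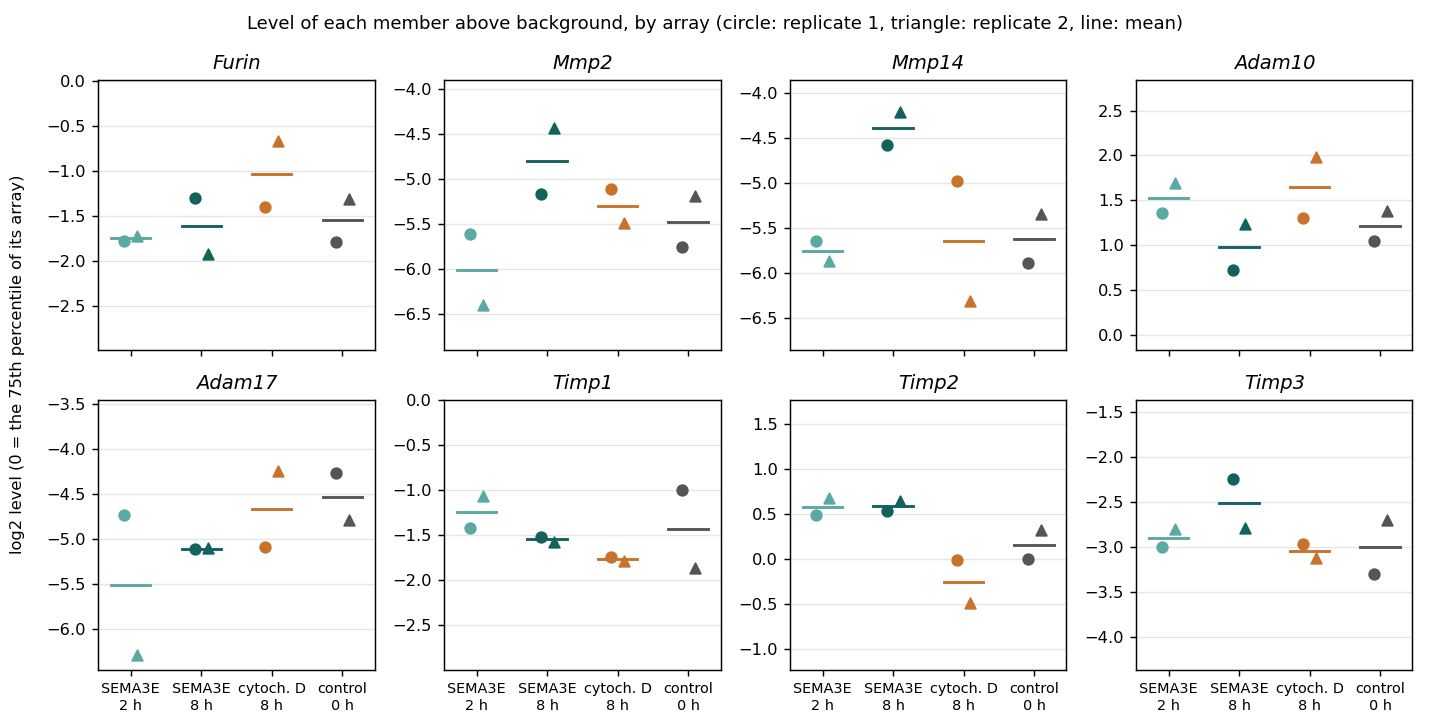
Log2 level of the 8 tested members on each array (vertical axis, 0 is the 75th percentile of the array's detected probes), with circles for replicate 1, triangles for replicate 2 and a line at the group mean of 2 arrays. Each panel spans the same number of log2 units. Both SEMA3E 8 h arrays of Mmp14, at -4.58 and -4.21, lie above all other arrays. Both cytochalasin D arrays of Timp2, at -0.014 and -0.49, lie below all others, the nearest being control replicate 1 at -0.004. The other Timp2 probe, not drawn, does not repeat this order.

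Furin transcript was detected on every array and did not separate the groups. It read -1.78 and -1.72 at 2 h of SEMA3E, -1.31 and -1.92 at 8 h of SEMA3E, -1.40 and -0.67 with cytochalasin D, and -1.79 and -1.32 in control. The cytochalasin D replicate 2 array was the highest of the 8, and the remaining 7 arrays lay between -1.92 and -1.31. The means were -1.75 ± 0.04 at 2 h of SEMA3E, -1.61 ± 0.43 at 8 h of SEMA3E, -1.04 ± 0.52 with cytochalasin D and -1.55 ± 0.33 in control (SD, n = 2), and with the groups ranked by mean each overlapped the next. The difference from control was -0.20 ± 0.36 at 2 h of SEMA3E, -0.06 ± 0.36 at 8 h of SEMA3E and 0.52 ± 0.36 with cytochalasin D (SE, limma adjusted p = 0.865, 0.992 and 1). The 95% intervals ran from -1.04 to 0.65, from -0.90 to 0.78 and from -0.33 to 1.36 in that order. Without cytochalasin D replicate 2, the difference between cytochalasin D and control was 0.15. The processed signal on the 2 spots of the Furin probe ran from 284 to 1191, and the spots of 1 array differed by 1.03-fold to 1.5-fold.

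Mmp14, the membrane-type metalloproteinase that activates MMP2, held the smallest unadjusted p of the members. It read -5.65 and -5.88 at 2 h of SEMA3E, -4.58 and -4.21 at 8 h of SEMA3E, -4.98 and -6.31 with cytochalasin D, and -5.89 and -5.35 in control. Both SEMA3E 8 h arrays were above every other array, and the cytochalasin D arrays were further apart than those of any other group. On the unscaled signal the values were 23.9 and 19.9 at 2 h of SEMA3E, 114 and 121 at 8 h of SEMA3E, 64.8 and 17.7 with cytochalasin D, and 46.7 and 56.3 in control, and all 8 carried the mark of a signal well above background. The group means were -5.76 ± 0.16 at 2 h of SEMA3E, -4.40 ± 0.26 at 8 h of SEMA3E, -5.65 ± 0.94 with cytochalasin D and -5.62 ± 0.38 in control (SD, n = 2).

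The difference of Mmp14 between SEMA3E at 8 h and control was 1.23 ± 0.45 (SE), or 2.34-fold, with an unadjusted p of 0.0288 and an adjusted p of 0.764 by limma. Against SEMA3E at 2 h, SEMA3E at 8 h stood 1.36 ± 0.45 higher, or 2.57-fold (unadjusted p = 0.0183, adjusted p = 0.409). Cytochalasin D differed from SEMA3E at 8 h, the comparison matched in time, by -1.25 ± 0.45 (unadjusted p = 0.0265, adjusted p = 0.44), and by -0.59 without cytochalasin D replicate 2 and -1.92 without replicate 1. Those 3 comparisons all draw on the same pair of SEMA3E 8 h arrays. At 2 h, SEMA3E differed from control by -0.14 ± 0.45, and cytochalasin D differed from control by -0.03 ± 0.45, so neither was separated from control.

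Array-wide measures also differed between the arrays, and their part in the Mmp14 result was not tested. Negative-control probes read 41.6 on SEMA3E 8 h replicate 2, against 17.9 to 22.2 on the other 7 arrays, and without that array the Mmp14 difference from control was 1.04. Across the 24668 tested probes, the deviation of a probe from its own mean correlated with GC content. The coefficient was -0.06 and 0.08 for SEMA3E at 2 h, 0.17 and 0.32 for SEMA3E at 8 h, -0.02 and -0.17 for cytochalasin D, and -0.29 and -0.05 for control, and the median GC content was 43.3%. Scaled to the median over all probes, Mmp14 differed between SEMA3E at 8 h and control by 0.07 in place of 1.23, while the median of all genes stood at -1.04. Taken relative to the median of all genes, the Mmp14 difference was 1.1 under both scalings.

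Mmp2, the gelatinase that MMP14 activates, was ordered like Mmp14 at the SEMA3E time points. It read -5.61 and -6.40 at 2 h of SEMA3E, -5.17 and -4.43 at 8 h of SEMA3E, -5.11 and -5.49 with cytochalasin D, and -5.76 and -5.19 in control. The SEMA3E 8 h arrays lay above both SEMA3E 2 h arrays and above both control arrays, in the second case by a narrow margin, and they overlapped the cytochalasin D arrays. On the unscaled signal the probe read 24.5 and 13.8 at 2 h of SEMA3E, 75.7 and 105 at 8 h of SEMA3E, 59.1 and 31.3 with cytochalasin D, and 51.1 and 63.1 in control. SEMA3E at 8 h differed from SEMA3E at 2 h by 1.21 ± 0.41, or 2.31-fold (SE, limma unadjusted p = 0.0193, adjusted p = 0.41). It differed from control by 0.68 ± 0.41 (adjusted p = 0.863), and without SEMA3E 8 h replicate 2 by 0.31. At 2 h, SEMA3E differed from control by -0.53 ± 0.41 (adjusted p = 0.654), and without SEMA3E 2 h replicate 2 by -0.14, while cytochalasin D differed from control by 0.17 ± 0.41 (adjusted p = 1).

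The values of both metalloproteinase probes changed with the background method, and the cause was not tested. With normexp in place of the deposited processed signal, Mmp14 differed between SEMA3E at 8 h and control by 0.80, and by 0.53 with quantile normalization added. With normexp alone, SEMA3E at 8 h against 2 h gave 0.31 for Mmp14 and -0.21 for Mmp2, with the median of all genes at -0.33. Relative to that median, the differences were 0.64 for Mmp14 and 0.12 for Mmp2. The levels of Mmp14 and Mmp2 correlated at 0.78 over the 8 arrays (Pearson), which share their scaling and background, so this is a description of the arrays. Mmp9, the other gelatinase gene, read between 1.42 and 4.79 on the processed signal and was well above background on 0 of 8 arrays. Of its 8 readings, 7 were surrogate values set by the scanner software, and the dimmest spot with a mark of detection read 6.62 to 19.01, depending on the array, so Mmp9 transcript was not detectable here.

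Adam10, a sheddase that cuts Notch and other membrane proteins, was well above background on all arrays, with a processed signal from 2983 to 6468. It read 1.36 and 1.69 at 2 h of SEMA3E, 0.73 and 1.24 at 8 h of SEMA3E, 1.30 and 1.99 with cytochalasin D, and 1.05 and 1.38 in control. The SEMA3E 8 h arrays lay below both cytochalasin D arrays and below both SEMA3E 2 h arrays, and overlapped control. Cytochalasin D and SEMA3E at 8 h differed by 0.66 ± 0.34 (SE, limma adjusted p = 0.495), and SEMA3E at 8 h and at 2 h by -0.55 ± 0.34 (adjusted p = 0.504). Differences from control were 0.32 ± 0.34 at 2 h of SEMA3E, -0.23 ± 0.34 at 8 h of SEMA3E and 0.43 ± 0.34 with cytochalasin D (adjusted p = 0.76, 0.959 and 1). Single arrays carried much of these differences. Without cytochalasin D replicate 2, cytochalasin D differed from SEMA3E at 8 h by 0.32 and from control by 0.09, and without SEMA3E 8 h replicate 1, SEMA3E at 8 h differed from SEMA3E at 2 h by -0.29. Without control replicate 1, SEMA3E at 2 h differed from control by 0.15. With normexp, SEMA3E at 8 h and at 2 h differed by -0.22, and by -0.13 with quantile normalization added. The median of all genes was then at -0.33 and -0.05.

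Adam17, the sheddase of TNF and of ligands of the EGF receptor, gave a value at 2 h of SEMA3E that turned on 1 spot. The probe used for the gene read -4.73 and -6.28 at 2 h of SEMA3E, -5.11 and -5.10 at 8 h of SEMA3E, -5.09 and -4.24 with cytochalasin D, and -4.26 and -4.79 in control. The array of SEMA3E 2 h replicate 2 was far below its replicate and below all other arrays. Its 2 spots of this probe read 50.7 and 4.4, or 3.52 apart on the log2 scale, and the dimmer was a surrogate value not above background. In the other 35 pairs of spots of the members, on the remaining 7 arrays, the spots differed by at most 2.01-fold.

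The difference of Adam17 between SEMA3E at 2 h and control was -0.98 ± 0.53 (SE, limma adjusted p = 0.552) with both spots averaged. It was -0.16 with the brighter spot of each probe in place of the mean, a setting chosen after the values were seen, and -0.21 without SEMA3E 2 h replicate 2. The other probe, shifted by 8 bases, read -5.62 and -6.38 at 2 h of SEMA3E, -6.85 and -7.46 at 8 h of SEMA3E, -6.91 and -6.04 with cytochalasin D, and -6.05 and -6.73 in control. By that probe SEMA3E at 2 h differed from control by 0.39 ± 0.45, so the probes disagreed in sign, and neither difference passed. At 8 h of SEMA3E against control the probes shared a sign, with -0.58 ± 0.53 for the probe used for the gene and -0.77 ± 0.45 for the other (adjusted p = 0.907 and 0.837). For SEMA3E at 8 h against 2 h they did not, with 0.40 ± 0.53 and -1.15 ± 0.45 (adjusted p = 0.741 and 0.403). On SEMA3E 8 h replicate 2, both spots of the other probe, at 18.2 and 9.0, were not marked as well above background. The -0.77 and -1.15 of that probe therefore rest in part on an undetected reading.

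**Figure D2:**
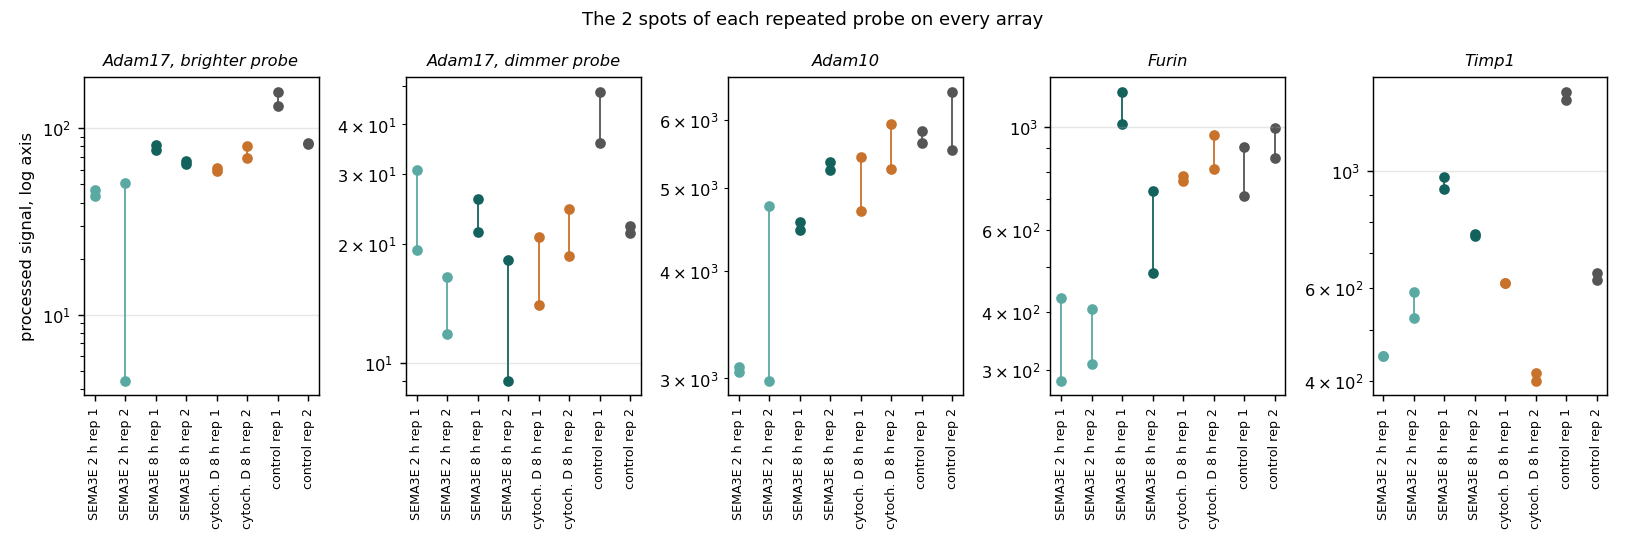
Processed signal, log axis and not scaled between arrays, of both spots of each member probe that is printed on 2 spots, with 1 vertical line per array joining its spots. Signal axes differ between panels. For the probe of Adam17 used for the gene, the spots of SEMA3E 2 h replicate 2 read 50.7 and 4.4, while the Timp1 spots differ by at most 1.12-fold on any array.

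The wide gap was not limited to Adam17 on that array. Of the probes printed on 2 spots of SEMA3E 2 h replicate 2, 18.3% had spots over 2-fold apart, against 2.03% to 5.34% on the other 7 arrays, and 36 probes had spots over 10-fold apart, against 0 to 10 on the others. The Adam10 spots there read 4765 and 2983, or 1.6-fold apart, which was the widest Adam10 pair. The same array held 214 spots marked as outliers in the files, none of them a member's, and its spike-in controls varied by 22.2% between copies, against 5.48% to 12.3% on the other arrays.

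Plau, which encodes urokinase, was not detectable. Its probe read between 1.47 and 4.11 on the processed signal, was well above background on 0 of 8 arrays, and all 8 readings were surrogate values. Whether Plau or Mmp9 differed between the groups could not be read at these signals.

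Timp2, the inhibitor that also bridges MMP14 and MMP2, was the inhibitor with the largest difference, between cytochalasin D and SEMA3E at 8 h. The probe used for the gene read 0.49 and 0.68 at 2 h of SEMA3E, 0.54 and 0.64 at 8 h of SEMA3E, -0.014 and -0.49 with cytochalasin D, and -0.004 and 0.32 in control. All 4 SEMA3E arrays lay above both control arrays. Both cytochalasin D arrays lay below them, replicate 1 by a margin far under the spread. Cytochalasin D differed from SEMA3E at 8 h by -0.84 ± 0.28 (SE, limma unadjusted p = 0.0188, adjusted p = 0.435), with a 95% interval from -1.50 to -0.19. Differences from control were 0.42 ± 0.28 at 2 h of SEMA3E, 0.43 ± 0.28 at 8 h of SEMA3E and -0.41 ± 0.28 with cytochalasin D (adjusted p = 0.611, 0.876 and 1). These use the same control arrays and are set side by side only. Without control replicate 1 the differences at 2 h and 8 h of SEMA3E were 0.26 and 0.27, and without cytochalasin D replicate 2 that of cytochalasin D was -0.17.

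The other Timp2 probe did not repeat this order. It read 0.17 and -0.56 at 2 h of SEMA3E, 0.44 and 0.46 at 8 h of SEMA3E, 0.43 and -0.12 with cytochalasin D, and -0.18 and 0.29 in control. The SEMA3E 8 h arrays were again above both controls, whereas the cytochalasin D arrays overlapped control. Cytochalasin D differed from SEMA3E at 8 h by -0.30 ± 0.36 by this probe, and SEMA3E at 8 h differed from control by 0.40 ± 0.36 (SE, adjusted p = 0.76 and 0.886). At 2 h of SEMA3E against control its difference was -0.25 ± 0.36, opposite in sign to that of the probe used for the gene, and neither passed.

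Timp1, a secreted inhibitor with growth-promoting effects on some cells, had its widest spread within the control group. It read -1.42 and -1.06 at 2 h of SEMA3E, -1.52 and -1.58 at 8 h of SEMA3E, -1.74 and -1.79 with cytochalasin D, and -0.998 and -1.87 in control. The control arrays enclosed all other arrays, so no treatment was separated from control. Differences from control were 0.19 ± 0.34 at 2 h of SEMA3E, -0.12 ± 0.34 at 8 h of SEMA3E and -0.33 ± 0.34 with cytochalasin D (SE, adjusted p = 0.86, 0.979 and 1). Cytochalasin D and SEMA3E at 8 h, each with a narrow spread, differed by -0.22 ± 0.34 (adjusted p = 0.82).

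Timp3, the inhibitor that binds to the matrix, read -3.00 and -2.80 at 2 h of SEMA3E, -2.24 and -2.78 at 8 h of SEMA3E, -2.96 and -3.12 with cytochalasin D, and -3.30 and -2.70 in control. The SEMA3E 8 h arrays lay above both cytochalasin D arrays, and the control arrays enclosed every other array except SEMA3E 8 h replicate 1. Cytochalasin D differed from SEMA3E at 8 h by -0.53 ± 0.32, and SEMA3E at 8 h differed from control by 0.49 ± 0.32 (SE, limma adjusted p = 0.542 and 0.877). At 2 h of SEMA3E the difference from control was 0.10 ± 0.32, and with cytochalasin D it was -0.04 ± 0.32. Without SEMA3E 8 h replicate 1, cytochalasin D differed from SEMA3E at 8 h by -0.26, and without control replicate 1, SEMA3E at 8 h differed from control by 0.19.

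**Figure D3:**
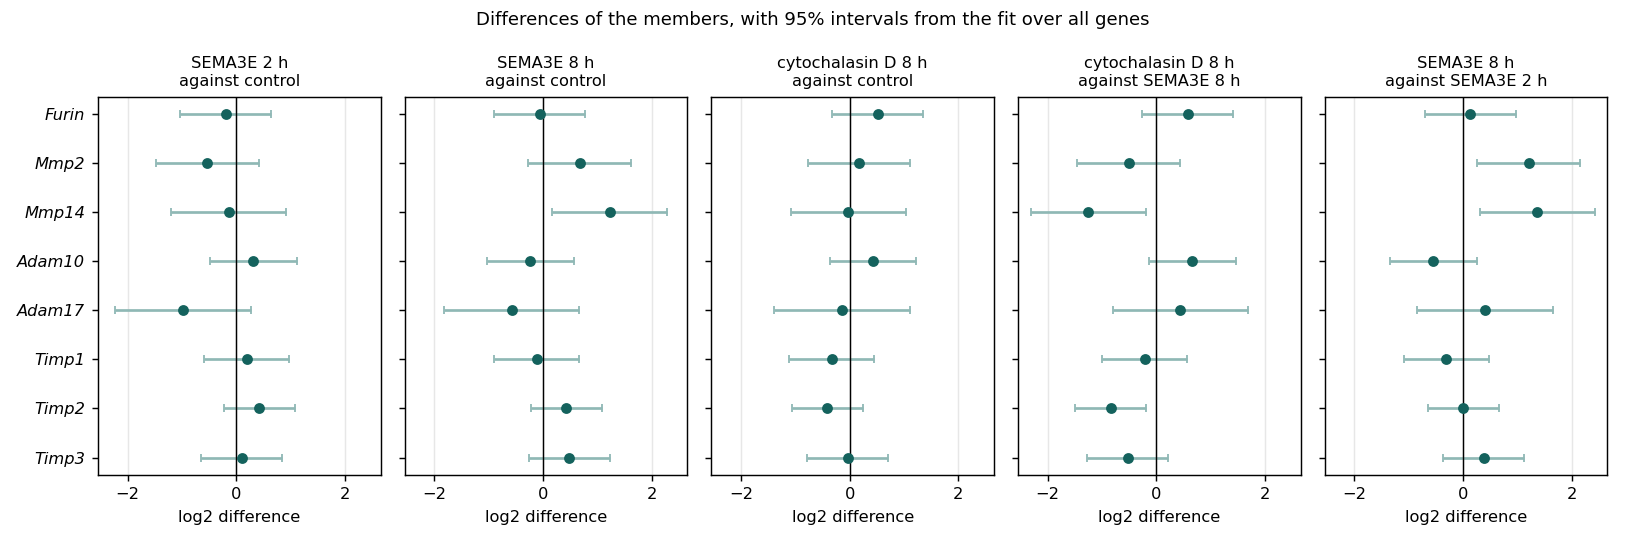
Log2 difference of each tested member (points) in the 5 comparisons, with the 95% interval from the limma fit over all genes, 2 arrays a group. Intervals leave out 0 for Mmp14 in all 3 comparisons that involve SEMA3E at 8 h, for Timp2 in cytochalasin D against SEMA3E at 8 h, and for Mmp2 in SEMA3E at 8 h against 2 h, before adjustment over all genes. None passed after adjustment.

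Across the 8 arrays the members did not move as a block. Mmp14 correlated with Timp3 at 0.64 and with Timp2 at 0.55, and with Adam10 at -0.66, while Furin correlated with Timp2 at -0.71 and with Timp1 at -0.62 (Pearson). The genes whose levels followed Furin most closely were Tbkbp1, which encodes a binding partner of the kinase TBK1, and the RNA-binding protein gene Mex3c, both at 0.97, and Dnm1l, the mitochondrial fission dynamin, at 0.97. Those closest to Mmp14 were Map1a, a microtubule-associated protein gene, at 0.99, the sulfotransferase gene Chst11 at 0.99, and a probe without a gene name at 0.98. These are the highest of 18074 genes over 8 arrays that share scaling and background, and are given as descriptions.

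Other genes of pericellular proteolysis were counted in 7 lists of 86 genes, of which 36 were tested, and 0 of 36 were called by limma in any comparison. At an unadjusted p under 0.05 they numbered 5 of 36 (13.9%) at 2 h of SEMA3E against control, where 9.48% of all genes did, and 3 of 36 (8.33%) at 8 h of SEMA3E against control, where 6.13% did. The counts were 0 of 36 for cytochalasin D against control, where 2.43% of all genes did, and 4 of 36 (11.1%) for cytochalasin D against SEMA3E at 8 h, where 11% did. For SEMA3E at 8 h against 2 h the count was 3 of 36 (8.33%), where 11.6% did. Their medians were -0.02, 0.12, 0.06, -0.10 and 0.09 in these comparisons, within 0.1 of the medians of all genes.

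Of 20 further matrix metalloproteinase genes only 2 were tested. Mmp11, which encodes stromelysin-3 and, like MMP14, is processed by furin, differed from control by 0.95 ± 0.29 at 2 h of SEMA3E and by 0.97 ± 0.29 at 8 h of SEMA3E, and cytochalasin D differed from SEMA3E at 8 h by -0.95 ± 0.29 (SE, limma adjusted p = 0.497, 0.69 and 0.418). Its levels were -6.11, -6.10, -7.04 and -7.06 in SEMA3E 2 h, SEMA3E 8 h, cytochalasin D and control. Mmp17, a membrane-type metalloproteinase gene, differed by -0.08, 0.10 and -0.15 in the same comparisons. The Mmp11 levels lay far below the scaling percentile, although Mmp11 was above background on 8 of 8 arrays. Leaving out single arrays gave Mmp11 0.81 to 1.09 at 2 h and 0.88 to 1.06 at 8 h. Over all spots, the 75th percentile of processed signal was higher in control (128.9 and 131.6) than after 2 h of SEMA3E (59.3 and 61.2). That was not so at 8 h (154.4 and 141.3). Whether scaling of a dim signal accounts for the 2 h Mmp11 difference was not tested.

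Of 8 other convertase genes 4 were tested. Pcsk4, a convertase gene known from germ cells, differed from control by 0.79 ± 0.28 at 2 h of SEMA3E (adjusted p = 0.518) and by 0.24 ± 0.28 at 8 h of SEMA3E. Mbtps1, the site-1 protease that cleaves SREBP, differed from control by -0.30 ± 0.32 at 2 h of SEMA3E.

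All 7 other ADAM protease genes were tested. Adam19, a sheddase of neuregulins, was 1.02 ± 0.38 higher with cytochalasin D than with SEMA3E at 8 h (adjusted p = 0.442), and 0.54 without SEMA3E 8 h replicate 1. Adam28 differed by 2.68 ± 0.89 between SEMA3E at 8 h and control (adjusted p = 0.73), and was above background on 2 of 8 arrays. The SEMA3E 8 h arrays read -8.99 and -5.90, against -9.96 and -10.29 in control, and without SEMA3E 8 h replicate 2 the difference was 1.14. Of 19 ADAMTS genes 3 were tested, and Adamts4, which encodes an aggrecanase, differed by 0.76 ± 0.33 between cytochalasin D and SEMA3E at 8 h (adjusted p = 0.46), and by 0.36 without cytochalasin D replicate 2.

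Among 15 other inhibitors and regulators, 11 were tested. Tspan33 and Tspan5, tetraspanins that bind ADAM10 and help to bring it to the surface, ranked lowest by moderated t in some comparisons and highest in others. Tspan5 ranked highest in SEMA3E against control, at 0.44 at 2 h and 0.73 at 8 h. Tspan33 ranked highest in SEMA3E at 8 h against 2 h, at 0.84, and was above background on 7 of 8 arrays. Their lowest ranks came from different comparisons. Tspan33 differed by -1.20 ± 0.33 between SEMA3E at 2 h and control (adjusted p = 0.464), and Tspan5 by -1.22 ± 0.39 between cytochalasin D and SEMA3E at 8 h (adjusted p = 0.423). Without SEMA3E 2 h replicate 2 the Tspan33 value was -0.80, and without cytochalasin D replicate 2 the Tspan5 value was -0.64. Rhbdf1, which encodes a rhomboid-like escort of ADAM17, differed by 0.53 ± 0.29 between cytochalasin D and SEMA3E at 8 h (adjusted p = 0.51).

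In the plasminogen system, 4 of 8 further genes were tested. Plat, the tissue-type activator gene, read -8.05 at 2 h of SEMA3E, -5.94 at 8 h of SEMA3E and -6.35 in control. It differed by -1.70 ± 0.61 between SEMA3E at 2 h and control and by 2.10 ± 0.61 between SEMA3E at 8 h and 2 h (adjusted p = 0.518 and 0.403), and was above background on 6 of 8 arrays. Without control replicate 2 the first of these was -0.88. The SEMA3E 2 h arrays, at -7.80 and -8.30, were the lowest of the 8. Both differences thus rest on readings near the limit of detection, and their sizes are uncertain. Plaur, the urokinase receptor gene, differed from control by 0.25 ± 0.30 at 8 h of SEMA3E and by 0.02 ± 0.30 with cytochalasin D. Of 9 other pericellular proteases 5 were tested, and the lysosomal protease gene Ctsd differed by 0.65 ± 0.26 at 2 h of SEMA3E and the hepsin gene Hpn by 1.05 ± 0.39 at 8 h of SEMA3E against control (adjusted p = 0.518 and 0.764).

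**Figure D4:**
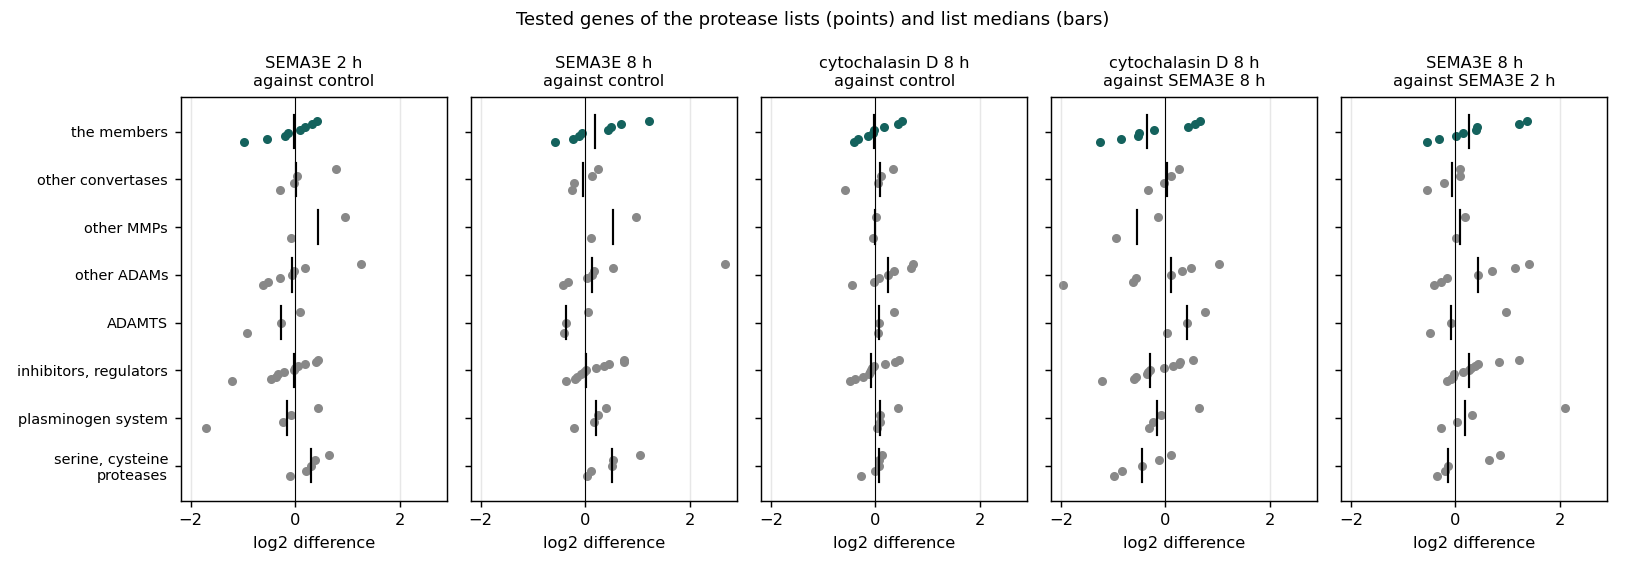
Log2 difference (horizontal axis) of each tested gene of the members and of the 7 other protease lists in the 5 comparisons, with a bar at each list's median. Most points lie within 1 log2 unit of 0. The Adam28 point at 2.68 in SEMA3E 8 h against control was above background on 2 of 8 arrays and is 1.14 without SEMA3E 8 h replicate 2, and 0 of 36 list genes and 0 of 8 members passed the test.

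The arrays set the limits of these values. All 8 lay on 1 slide with 1 scan day, and the arrays of a group were neighbours, so position and group cannot be told apart. Between 37.6% and 47.8% of spots were well above background, the 75th percentile of the processed signal was 59.3 and 61.2 on the SEMA3E 2 h arrays, 66.8 on cytochalasin D replicate 2 and 111 to 154 on the other arrays, and for 3 of 8 arrays the closest array was the replicate of the same group. All 7 melanocyte markers were above background on every array, while 2 of 5 macrophage, 2 of 5 fibroblast and 2 of 4 endothelial markers were. Each list was compared only with itself across arrays, since probes differ in brightness. The summed linear level of the melanocyte markers ran from 163 to 244 over the 8 arrays. That of the macrophage markers ran from 0.12 to 0.183, that of the fibroblast markers from 0.11 to 0.152 and that of the endothelial markers from 0.0472 to 0.132. A lower value can mean fewer cells with a transcript or less of it in each cell, which arrays of whole cultures cannot tell apart.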

How the data were processed

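The scanner output of every array and a gene table were deposited. Per the file headers, the scanner output came from Agilent Feature Extraction 11.5.1.1 (genome build mm9). Its processed signal is a linear intensity after background subtraction, in which small values are replaced by surrogates, and arrays are not scaled to each other. The deposited table also holds intensity, with column medians from 5.30 to 28.7, and served as an alternative. Per the labels, Cy3-labelled cRNA was made from total RNA.

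From these, outlier-marked spots were set missing, spots of a probe were averaged as log2, and the 75th percentile of the 18691 probes detected on all 8 arrays was subtracted within each array. A probe was tested if well above background (on at least 0.5 of its spots) on both arrays of 1 or more groups, and a gene took its brightest tested probe, which left 24668 probes and 18074 genes. Group means were fitted with limma 3.58.1 in R 4.3.3 (4 residual and 3.39 prior degrees of freedom), and tables and figures were made with Python 3.11.15, numpy 2.4.6, pandas 2.3.3 and matplotlib 3.10.9. The code of the fit was run on simulated data with known differences and independent noise, which does not probe array-wide effects. With 2 arrays a group, the number of arrays limits the precision, and differences had a median standard error of 0.34. The labels call the replicates biological, and p-values measure the spread between these samples.

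The members, lists and comparisons were chosen with earlier results of these data known. All members and their probes are named, and from each list the tested genes with the highest and lowest moderated t in a comparison were eligible. Symbols were updated through RefSeq (GRCm38.p6), which 27673 probes matched, and chromosomes were taken from it. Probe positions and protein sequences were not analysed here. Alternatives covered background, scaling, filters, probes, spots, the variance model, the replicate block, the deposited table and leaving out each array.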

Additional observations from a re-analysis of the deposited data

How the results depend on the processing

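No member was called in any comparison under any of the 22 alternatives, and the lowest adjusted p of a member was 0.141. Scaling to the median or to the 75th percentile over all probes shifts all genes of a comparison alike, and under both the 40 member differences, taken relative to the median of all genes, stayed within 0.001 of those under the main scaling. Under the other 20 alternatives, 19 of 40 differences turned sign and 21 did not, and the cause was not tested. This count is not taken relative to the median of all genes, which normexp also moved. A further 10 turned under those scalings alone. Counts over all genes moved more. Against 0 genes called at 2 h of SEMA3E against control, 3454 were called with normexp, which moved the median of all genes there to 0.39. Scaling to the median over all probes called 18, 0, 2, 7 and 35 genes in the 5 comparisons (SEMA3E 2 h, SEMA3E 8 h and cytochalasin D against control, cytochalasin D against SEMA3E at 8 h, SEMA3E 8 h against 2 h), and the deposited gene values gave 20, 13, 9, 13 and 20. This scaling moved the median of all genes to -0.53, -1.04, -0.15, 0.85 and -0.48, so its values below are shifted by those amounts.

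Sign changes of single members, all without a call, were as follows, those under the median and 75th percentile scalings being the shift common to all genes. Normexp also moved the median of all genes, to 0.39 and 0.23 for SEMA3E 2 h and cytochalasin D against control. It was -0.33 for SEMA3E 8 h against 2 h. Relative to it, Adam17 at 2 h (-0.32), Adam17 with cytochalasin D (-0.105) and Mmp2 at 8 h against 2 h (0.12) kept their sign. Those that turned included Mmp14 (0.10) and Mmp2 (0.17) at 2 h, Mmp14 with cytochalasin D (0.14) and Adam17 at 8 h against 2 h (-0.06). Adam10 kept its sign with normexp at 2 h (0.15) and at 8 h against 2 h (-0.22). Relative to the median of all genes, these Adam10 differences went from 0.26 to -0.24 and from -0.63 to 0.10, so they turned too. At 2 h of SEMA3E against control, scaling to the median over all probes gave -0.28 for Adam10, -0.40 for Timp1, -0.17 for Timp2 and -0.49 for Timp3, normexp gave 0.073 for Adam17, 0.49 for Mmp14 and 0.56 for Mmp2, normexp with quantile normalization gave -0.05 for Timp3, and the deposited gene values 0.13 for Adam17. At 8 h of SEMA3E against control, the median scaling gave -0.48 for Mmp2, -0.73 for Timp2 and -0.67 for Timp3. With cytochalasin D against control, normexp gave 0.12 for Adam17, 0.36 for Mmp14 and 0.11 for Timp3, normexp with quantile normalization 0.03 for Mmp14 and 0.037 for Timp3, quantile normalization 0.001 and the 75th percentile over all probes 0.005 for Mmp14, and the median scaling -0.007 for Mmp2. With cytochalasin D against SEMA3E at 8 h, the median scaling gave 0.48 for Mmp2, 0.77 for Timp1, 0.14 for Timp2 and 0.46 for Timp3, the 75th percentile over all probes 0.034 for Timp1, and the deposited table -0.033 for Adam17. For SEMA3E at 8 h against 2 h, Adam17 was -0.39 with normexp, -0.014 with normexp and quantile normalization, -0.17 with the median scaling, -0.38 with the mean of its probes, -0.21 in the deposited table and -0.46 with the brighter spot, a setting added after seeing the data. Furin was -0.016 with quantile normalization, -0.13 with the 75th percentile over all probes and -0.43 with the median scaling. Timp2 was -0.08 with normexp, -0.03 with normexp and quantile normalization, -0.25 with the 75th percentile over all probes and -0.56 with the median scaling, Mmp2 was -0.21 with normexp and Timp3 -0.18 with the median scaling.

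With each array left out in turn, no member was called, and the sign of these differences depended on which array was left out. At 2 h of SEMA3E against control, Furin ran from -0.43 to 0.039, Mmp14 from -0.41 to 0.13, Timp1 from -0.24 to 0.63 and Timp3 from -0.20 to 0.40. At 8 h of SEMA3E against control, Adam10 ran from -0.48 to 0.022, Furin from -0.37 to 0.25 and Timp1 from -0.55 to 0.32. With cytochalasin D against control, Adam17 ran from -0.56 to 0.29, Mmp14 from -0.69 to 0.64, Mmp2 from -0.11 to 0.46, Timp1 from -0.77 to 0.10 and Timp3 from -0.34 to 0.26. For SEMA3E at 8 h against 2 h, Adam17 ran from -0.37 to 1.18, Furin from -0.17 to 0.44 and Timp2 from -0.087 to 0.10.

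Replicates with the same number did not deviate together, with correlations from -0.15 to 0.14 between groups. Array-wide effects enter these correlations, so they cannot decide whether the numbers pair the samples. With the replicate block, 0 members were called, as without it, and 7 genes at 8 h of SEMA3E against control in place of 1, and 0 genes in the other comparisons. Mmp9 and Plau were above background on 0 of 8 arrays and could not be tested.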
